A study of Mus musculus with 6 samples.

Results

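The dystrophin-glycoprotein complex was examined as the mRNA levels of 8 of its genes in embryonic mouse hearts of *Mrps5* conditional knockout (cKO) and control genotypes. The genes were taken by official symbol from the table of 26199 genes, after the transcript rows of each gene were summed: *Dmd*, *Dag1*, *Sgca*, *Sgcb*, *Sgcd*, *Sspn*, *Sntb1* and *Dtna*. All 8 were in the table, and all 8 passed the filter on low values that left 13262 genes for testing. Sarcospan (*Sspn*) and delta-sarcoglycan (*Sgcd*) showed the largest decreases in mean level, 31.4% and 28.8% in the libraries labelled cKO, of which 1 of 3 stood at the control level of *Mrps5*, and both had an unadjusted p under 0.05. Neither passed the test once p was adjusted over all genes tested, and the same held for the other 6. Dystroglycan (*Dag1*), the most abundant member, and beta-1-syntrophin (*Sntb1*) had means in cKO at 1.055 and 0.966 times the control mean, although for *Dag1* the interval of the difference was wide.

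The complex spans the plasma membrane of muscle cells. Dystrophin binds the actin cytoskeleton inside the cell and beta-dystroglycan at the membrane, alpha-dystroglycan binds laminins and other matrix proteins outside, and the sarcoglycans and sarcospan form a membrane subcomplex that holds this axis together, while syntrophins and dystrobrevins attach signalling proteins to it. Loss of dystrophin causes Duchenne muscular dystrophy with cardiomyopathy, and mutations of *SGCD* are a known cause of dilated cardiomyopathy.

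Whole hearts at embryonic day 12 were compared in 6 libraries, 3 per group. Control hearts were *Mrps5* fl/fl, and cKO hearts were *Mrps5* fl/fl; cTNT-Cre, so that both groups carried the same floxed alleles and only the cKO carried Cre, driven by the cardiac troponin T promoter, which is active in cardiomyocytes. *Mrps5* encodes a protein of the small subunit of the mitochondrial ribosome. Controls were littermates of the cKO, the 3 libraries of a group are labelled as biological replicates, and each library was a pool of several hearts, so that differences between single embryos are not seen. Ribosomal RNA was removed before directional (strand-specific) libraries were made. Levels are given in FPKM (fragments mapped to a transcript, scaled by its length and by the mapped fragments of the library), a scale per length on which genes can be compared with each other. Differences are cKO minus control in log2(FPKM + 1), with the standard error (SE) of a limma fit over all genes, and understate the change of low genes.

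*Mrps5* itself was at 9.65, 11.4 and 10.4 FPKM in the control libraries and at 5.28, 7.41 and 10.4 in the cKO libraries (limma log2 difference -0.44, SE 0.19, adjusted p = 0.339). The library labelled cKO replicate 3 therefore stood at the control level of the targeted gene, and the differences are given with and without it. The FPKM of a library summed to between 454692 and 515952. Among the marker lists of 9 cell types, the cardiomyocyte list moved with the groups: 14 of 15 were lower in cKO, 9 of them with an unadjusted p under 0.05, beside 9.43% lower with such a p among all genes tested. The remaining marker, *Nppa*, which encodes a natriuretic peptide, was higher with such a p. The summed level of the 15 was 13331 to 16063 FPKM in control and 11630 to 13037 in cKO. None of these 15 markers was at 0 in any library. Lower with such a p were also 3 of 6 smooth muscle markers, 1 of 10 endothelial and endocardial markers (8 of which were lower in all), 1 of 2 neural crest and 1 of 2 skeletal muscle markers tested, and no fibroblast or macrophage marker. Higher with such a p were 6 of 12 erythroid, 2 of 8 epicardial and 1 of 10 endothelial and endocardial markers, beside 5.58% higher among all genes tested. In a whole heart, fewer cardiomyocytes and less RNA per cardiomyocyte cannot be told apart. Erythroid genes took 12.0 to 13.3% of the FPKM sum in control, and 23.5, 10.8 and 22.0% in the cKO libraries. With erythroid genes left out and the rest rescaled, the median log2 difference of the 8 genes was -0.21, beside -0.23 without rescaling. That of all genes tested was 0.0020, beside -0.02. *Sgcd* was at -0.41 and *Sspn* at -0.52 after rescaling, beside -0.43 and -0.54. The part of the cardiomyocyte shift in the levels below was not tested.

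Dystrophin (*Dmd*, ENSMUSG00000045103) lies on the X chromosome and has several promoters. The windows of 250 bases upstream of the start of its long form and of its short form are shown first, because the deposited rows separate both forms, and the windows of *Sspn* and *Sgcd* are shown with them, since these were the members with the lowest unadjusted p. Sequences and positions are from RefSeq (GRCm38.p6) and are written 5′ to 3′ on the strand of the gene, which is the plus strand for *Dmd* and *Sspn* and the minus strand for *Sgcd*. Capitals mark a CArG box (CC, then 6 bases A or T, then GG, the site of serum response factor), a MEF2 site (C or T, then TA, 4 bases A or T, TA, then A or G) and the CATTCC core of the site of TEAD factors, searched on both strands.
Dmd long form, chrX:82948620-82948869: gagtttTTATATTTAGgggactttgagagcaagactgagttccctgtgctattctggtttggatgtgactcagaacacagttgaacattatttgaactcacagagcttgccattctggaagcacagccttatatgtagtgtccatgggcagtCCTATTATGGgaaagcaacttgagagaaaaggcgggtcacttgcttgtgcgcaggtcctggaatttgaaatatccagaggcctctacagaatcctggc
Dmd short form, chrX:85048045-85048294: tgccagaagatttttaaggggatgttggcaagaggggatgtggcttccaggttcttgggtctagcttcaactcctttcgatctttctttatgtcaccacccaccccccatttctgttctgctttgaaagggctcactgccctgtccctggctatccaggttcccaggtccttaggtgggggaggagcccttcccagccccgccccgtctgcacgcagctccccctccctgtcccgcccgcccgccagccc
Sspn, chr6:145933872-145934121: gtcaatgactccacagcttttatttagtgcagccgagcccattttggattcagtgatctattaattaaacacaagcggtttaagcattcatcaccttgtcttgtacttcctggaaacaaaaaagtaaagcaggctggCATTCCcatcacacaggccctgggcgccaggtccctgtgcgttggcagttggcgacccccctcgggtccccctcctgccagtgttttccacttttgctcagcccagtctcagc
Sgcd, chr11:47379326-47379575: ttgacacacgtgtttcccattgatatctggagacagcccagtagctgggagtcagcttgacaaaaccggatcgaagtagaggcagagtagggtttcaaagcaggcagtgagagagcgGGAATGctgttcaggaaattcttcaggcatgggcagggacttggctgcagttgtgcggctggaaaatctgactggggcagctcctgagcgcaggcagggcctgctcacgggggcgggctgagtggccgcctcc
The start next to the long-form window lay 33 bases from the annotated start of the transcript Dmd-203, that of the short form 118 bases from Dmd-201, that of *Sspn* at the start of Sspn-201, and that of *Sgcd* 197 bases from Sgcd-201. The long-form window held a CArG box, CCTATTATGG, and a MEF2 site, TTATATTTAG, while the short-form window held neither and no CATTCC. A CArG box was found in 1.47% and a MEF2 site in 2.92% of the 32851 mouse windows of this length. The windows of *Sspn* and *Sgcd* each held CATTCC, in *Sgcd* on the opposite strand (GGAATG), as did 12.6% of all windows. Such matches describe the letters only, and no binding was measured in these hearts.

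*Dmd* was at 19.4, 15.6 and 15.7 FPKM in the control libraries and at 16.7, 12.4 and 12.1 in the cKO libraries. Replicates 2 and 3 of the cKO lay below every control library, but replicate 1 did not, so the groups overlapped. The mean was 16.9 ± 2.19 FPKM (SD, n = 3) in control and 13.8 ± 2.59 in cKO, a log2 difference of -0.28 (SE 0.14, 95% interval -0.61 to 0.04, limma adjusted p = 0.387). It was -0.20 without the library labelled cKO replicate 3, -0.19 without control replicate 1, and -0.425 with an unadjusted p under 0.05 without cKO replicate 1. Almost all of this signal came from the row of Dmd-203 (ENSMUST00000114000, 14910 nucleotides), the full-length form of muscle, which had 19.1, 15.0 and 13.4 FPKM in control and 16.4, 12.1 and 10.1 in cKO. This row took 83.7 to 98.6% of the *Dmd* signal of a library, and its groups overlapped as well (log2 difference -0.29, limma adjusted p = 0.644 over the transcript rows).

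The short row Dmd-201 (ENSMUST00000113991, 4438 nucleotides), which begins at the downstream promoter, behaved differently. It had 0.270, 0.230 and 2.23 FPKM in control and 0.322, 0.356 and 1.96 in cKO. It was thus high in replicate 3 of both groups and low in the other 4 libraries, and its share of *Dmd* was 14.2% and 16.3% in those 2 libraries against 1.39 to 2.86% elsewhere. The row did not pass the filter and was not tested. The row Dmd-202 was above 0 in control replicate 2 alone, at 0.398 FPKM.

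*Dag1* (ENSMUSG00000039952) encodes the precursor that is cut into alpha- and beta-dystroglycan, the laminin receptor of the complex. It had 44.2, 60.6 and 52.1 FPKM in control and 52.4, 42.4 and 70.8 in cKO. Both the lowest and the highest of the 6 values were cKO libraries, and the groups overlapped widely. The mean was 52.3 ± 8.19 FPKM (SD, n = 3) in control and 55.2 ± 14.4 in cKO, with a log2 difference of 0.06 (SE 0.19, 95% interval -0.37 to 0.48, limma adjusted p = 0.915). Its most abundant row, Dag1-203 (ENSMUST00000171412), had a mean of 31.7 FPKM in each group. The sign of the difference turned without the library labelled cKO replicate 3 (-0.135), without control replicate 1 (-0.056) and from the most abundant row alone (-0.012).

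The sarcoglycans are single-pass membrane proteins that assemble as a tetramer, and *Sgcd* encodes the delta subunit, which with beta-sarcoglycan forms the core of the assembly. *Sgcd* (ENSMUSG00000020354) had 8.16, 7.50 and 7.48 FPKM in control and 4.72, 5.32 and 6.44 in cKO. Every cKO library lay below every control library, the library labelled cKO replicate 3 being the nearest to them. The mean was 7.71 ± 0.388 FPKM (SD, n = 3) in control and 5.49 ± 0.875 in cKO, with a log2 difference of -0.43 (SE 0.12, 95% interval -0.70 to -0.17), with an unadjusted p under 0.05 and a limma adjusted p of 0.170. Without the library labelled cKO replicate 3 the difference was -0.53 and the limma adjusted p 0.0498. The row Sgcd-201 (ENSMUST00000077221) carried nearly all of it, at 7.92, 7.28 and 7.36 FPKM in control and 4.23, 5.17 and 6.26 in cKO, again without overlap (log2 difference -0.47, limma adjusted p = 0.426).

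*Sgca* and *Sgcb* encode the alpha and beta subunits. *Sgca* (ENSMUSG00000001508) had 5.47, 2.90 and 4.30 FPKM in control and 3.23, 2.97 and 3.12 in cKO. The 3 cKO values lay close together, inside the range of the controls, whose replicate 2 was the lowest of all 6. The means were 4.22 ± 1.29 and 3.11 ± 0.134 FPKM (SD, n = 3), a log2 difference of -0.32 (SE 0.18, 95% interval -0.72 to 0.09, limma adjusted p = 0.434). It was -0.32 without the library labelled cKO replicate 3, -0.15 without control replicate 1, and -0.51 with an unadjusted p under 0.05 without control replicate 2. Its rows changed places between libraries: Sgca-205 (ENSMUST00000166320) was at 3.14 FPKM in control replicate 3 and 2.29 in cKO replicate 1 and listed at 0 in the other 4, while Sgca-201 (ENSMUST00000100551), the most abundant row on average, was lowest in those same 2 libraries, at 0.401 and 0.292. The sum over its rows was therefore used for *Sgca*, and nothing is read from its single rows.

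*Sgcb* (ENSMUSG00000029156) was the one of the 3 sarcoglycans examined with a higher mean in cKO. It had 4.65, 5.49 and 2.00 FPKM in control and 5.18, 5.62 and 5.59 in cKO, all in its single row, Sgcb-201. Control replicate 3 stood apart at 2.00, and the other 2 control values lay close to or among those of the cKO. The means were 4.05 ± 1.82 and 5.46 ± 0.243 FPKM (SD, n = 3), and the log2 difference of 0.43 (SE 0.25, 95% interval -0.15 to 1.02, limma adjusted p = 0.467) became 0.093 without control replicate 3, 0.42 without the library labelled cKO replicate 3, and 0.65 with an unadjusted p under 0.05 without control replicate 2.

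**Figure D1:**
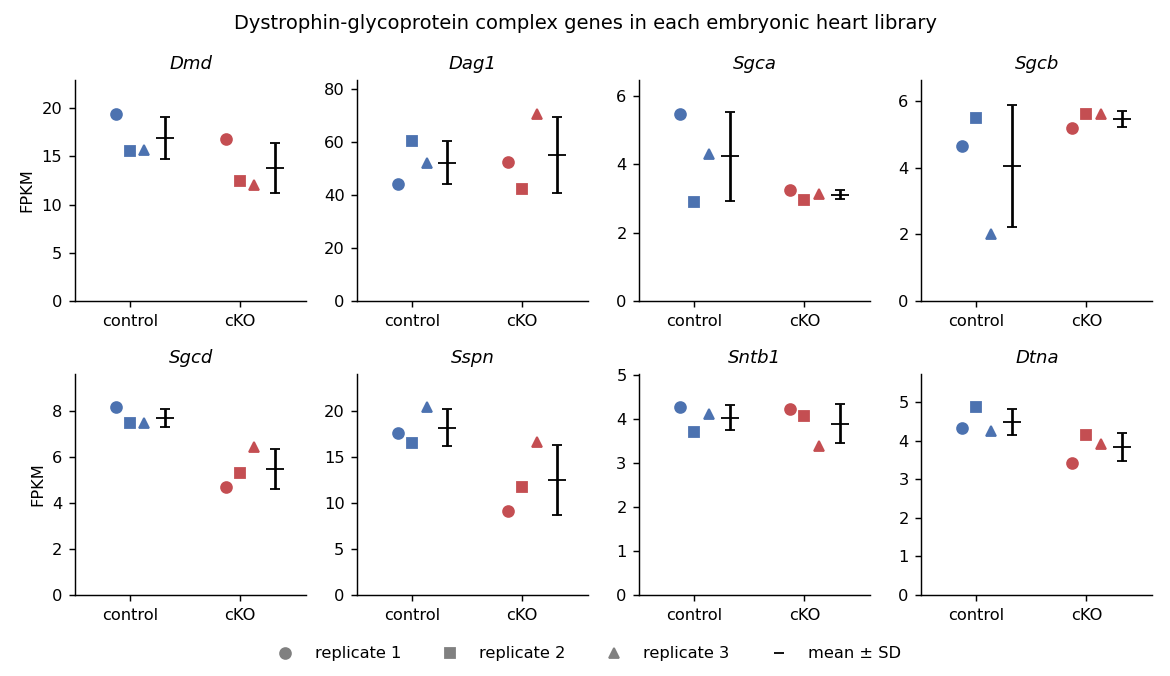
FPKM of each of the 8 genes by library, control and cKO (3 points each, with a marker shape for each replicate number), and beside them the group mean as a short line with the SD as a bar. Each panel has its own linear axis from 0. The cKO points of *Sgcd* and *Dtna* all lie below the control points, those of *Sspn* do so except for the library labelled cKO replicate 3, and control replicate 3 of *Sgcb* stands alone at 2.00 FPKM.

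Sarcospan, a small protein with membrane-spanning segments, binds the sarcoglycan tetramer. *Sspn* (ENSMUSG00000030255) had 17.6, 16.5 and 20.4 FPKM in control and 9.11, 11.7 and 16.6 in cKO. The first 2 cKO libraries lay far below all controls, whereas the library labelled cKO replicate 3 reached the lowest control value, so the groups overlapped at that point. The mean was 18.2 ± 1.99 FPKM (SD, n = 3) in control and 12.5 ± 3.81 in cKO, with a log2 difference of -0.54 (SE 0.19, 95% interval -0.97 to -0.11), with an unadjusted p under 0.05 and a limma adjusted p of 0.248. It was -0.755 with a limma adjusted p of 0.0328 without the library labelled cKO replicate 3. The unadjusted p was no longer under 0.05 when 1 of 3 other libraries was left out, with a difference of -0.46 without control replicate 3, -0.35 without cKO replicate 1 and -0.52 without cKO replicate 2.

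The main row Sspn-201 (ENSMUST00000032383, 4431 nucleotides) had 15.1, 15.5 and 19.1 FPKM in control and 9.07, 10.6 and 16.1 in cKO (log2 difference -0.47, limma adjusted p = 0.513). The minor row Sspn-202 (ENSMUST00000111701, 4512 nucleotides), whose annotated start lies 19307 bases from that of Sspn-201, had 2.56, 1.01 and 1.24 FPKM in control and 0.0345, 0.135 and 0.520 in cKO. Every cKO library was below every control library for Sspn-202. The row reached 1 FPKM in the control libraries alone and so passed the filter through the group where it was high, and its difference is given as a description without a test. Rows of a gene share reads, so their levels are not independent of each other. Among the 28 transcript rows of the 8 genes 13 passed the filter. Sspn-202 left aside, 1 of the other 12, Sgcd-201, had an unadjusted p under 0.05, which 10.2% of the 20370 rows tested in the whole table had. An adjusted p under 0.05 was reached by none of the 12, by limma, and by 0.0344% of all rows tested.

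**Figure D2:**
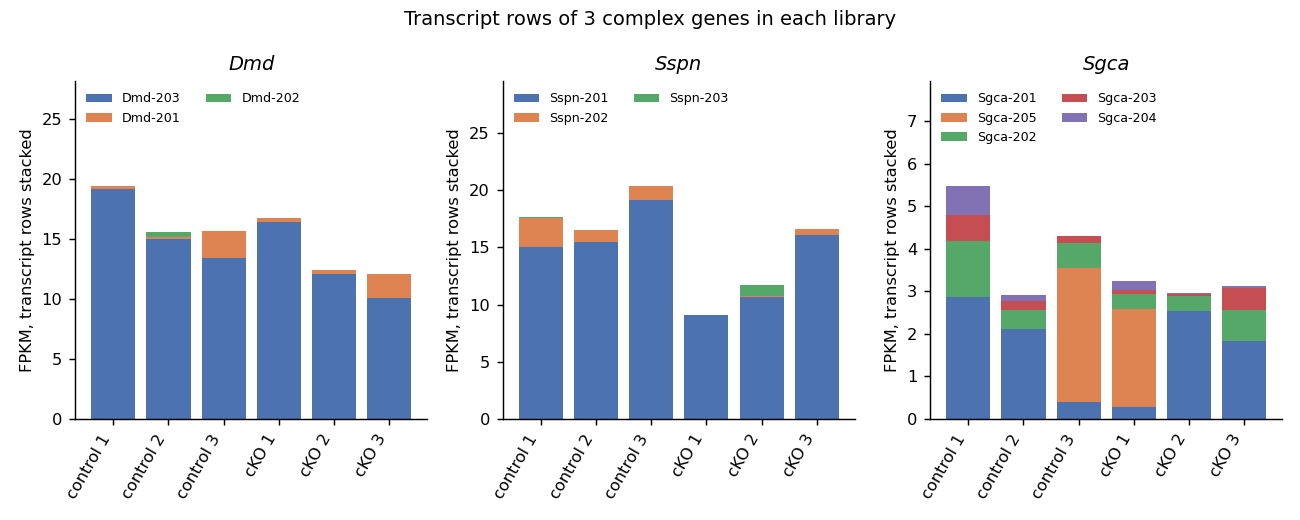
FPKM of the transcript rows of *Dmd*, *Sspn* and *Sgca*, stacked in 1 bar for each control and cKO library, each panel with its own linear axis from 0 and a colour for each row. Dmd-201 is high in replicate 3 of both groups, at 2.23 and 1.96 FPKM, Sspn-202 is thinner in every cKO bar than in any control bar, and Sgca-205 fills most of the bars of control replicate 3 and cKO replicate 1 and is absent from the others.

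Syntrophins are adaptor proteins that bind dystrophin and dystrobrevin, and *Sntb1* encodes the beta-1 form. *Sntb1* (ENSMUSG00000060429) had 4.27, 3.72 and 4.10 FPKM in control and 4.22, 4.06 and 3.39 in cKO. The values of both groups were interleaved, with means of 4.03 ± 0.282 and 3.89 ± 0.440 FPKM (SD, n = 3) and a log2 difference of -0.04 (SE 0.11, 95% interval -0.30 to 0.21, limma adjusted p = 0.889), and the row Sntb1-201 carried nearly all of the signal. Its sign also turned, to 0.033, without the library labelled cKO replicate 3.

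*Dtna* encodes alpha-dystrobrevin, a relative of dystrophin that joins syntrophins to it. *Dtna* (ENSMUSG00000024302) had 4.32, 4.86 and 4.25 FPKM in control and 3.43, 4.16 and 3.90 in cKO. Each cKO library was below each control library, by a small margin, with means of 4.48 ± 0.337 and 3.83 ± 0.368 FPKM (SD, n = 3). The log2 difference was -0.18 (SE 0.11, 95% interval -0.43 to 0.06, limma adjusted p = 0.460), and -0.19 without the library labelled cKO replicate 3. Its top row, Dtna-201 (ENSMUST00000047954), did not share the separation of the sum, at 2.41 FPKM on average in control and 2.36 in cKO.

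Across the 8 genes, 6 had a lower and 2 a higher mean log2 level in cKO, with a median log2 difference of -0.23 beside -0.02 for all genes tested. The 2 genes with an unadjusted p under 0.05, *Sgcd* and *Sspn*, were both lower, where 15.0% of all genes tested had such a p in either direction and 9.43% had one and were lower. By limma no member had an adjusted p under 0.05, which 0.0829% of all genes tested reached. The 2 members without overlap of the groups, *Sgcd* and *Dtna*, were lower in cKO, where 13.0% of all genes tested lay without overlap in that direction, and no member lay without overlap in the other, where 7.74% did. Without the library labelled cKO replicate 3, *Sgcd* and *Sspn* remained the 2 members with an unadjusted p under 0.05, both with an adjusted p under 0.05 by limma, where 15.3% and 1.98% of the 13167 genes tested in those 5 libraries had such a p. Their median was then -0.20, and 3 members lay without overlap below control, as did 17.7% of all genes tested with 3 against 2 libraries. Relative to the control mean, the median log2 level of the 15 markers was -0.43, -0.33 and -0.16 in cKO replicates 1 to 3, and that of the 8 genes was -0.14, -0.33 and -0.18. In control replicates 1 to 3 the markers were at 0.017, -0.14 and 0.14, and the 8 genes at 0.071, -0.063 and -0.015. Both medians were below 0 in every cKO library and in control replicate 2, and that of the 8 genes also in control replicate 3. Among the cKO libraries the markers were lowest in replicate 1 and the 8 genes in replicate 2. The part of the markers in the members' levels was not tested.

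**Figure D3:**
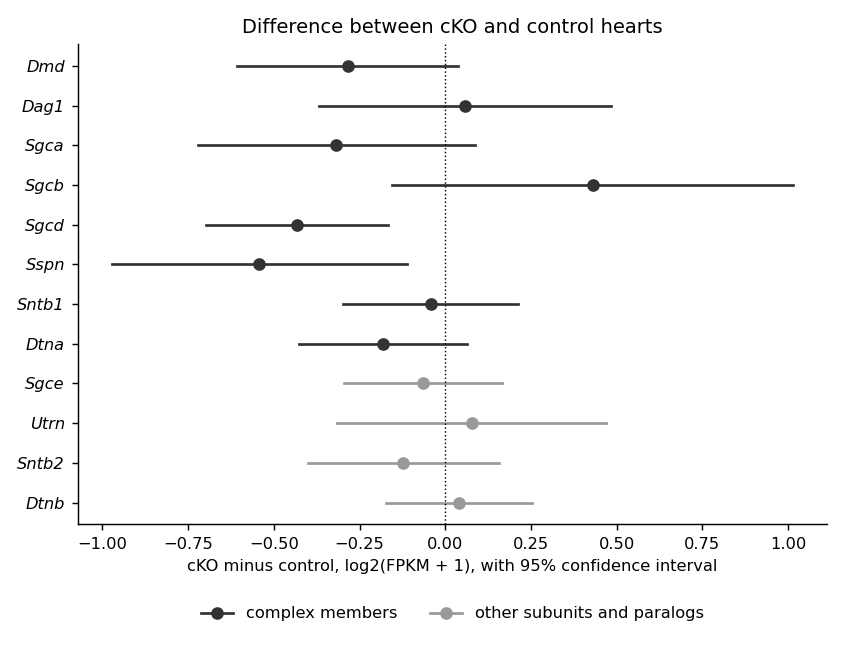
Difference between cKO and control in log2(FPKM + 1) for each of the 8 genes (black) and 4 other subunits and paralogs (grey), as points with the 95% interval of the limma fit as bars and a dotted line at 0. The intervals of *Sgcd* and *Sspn* lie below 0, and those of the other 6 members and of the 4 other genes include 0.

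The order of the levels within a group was led by *Dag1* in both groups. In control it was followed by *Sspn* and *Dmd*, at 18.2 and 16.9 FPKM, whose ranges overlapped, then by *Sgcd* at 7.71, apart from its neighbours. *Dtna*, *Sgca*, *Sgcb* and *Sntb1* lay between 4.48 and 4.03 FPKM, and each overlapped with the next. In cKO, *Dmd* came before *Sspn*, at 13.8 and 12.5 FPKM with overlapping ranges, and *Sgcd* lay at 5.49 beside *Sgcb* at 5.46, which it had stood clear of in control. *Sntb1* and *Dtna* followed at 3.89 and 3.83 FPKM, and *Sgca* was the lowest at 3.11.

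The remaining subunits and paralogs that could be tested had smaller differences than *Sgcd* and *Sspn*. Of 11 listed, 5 passed the filter, 3 lower and 2 higher in cKO. By limma none of the 5 had an unadjusted p under 0.05, beside 15.0% of all genes tested in either direction. Utrophin (*Utrn*), the widely expressed relative of dystrophin, was more abundant than *Dmd* in both groups, at 38.3 ± 7.70 and 40.3 ± 7.33 FPKM (log2 difference 0.08, SE 0.17, 95% interval -0.31 to 0.47, limma adjusted p = 0.869, and 0.20 without the library labelled cKO replicate 3). Epsilon-sarcoglycan (*Sgce*), which many tissues express in place of the alpha form, was at 18.1 ± 0.811 and 17.4 ± 2.06 FPKM, a level above that of *Sgca* in every library (log2 difference -0.06, 95% interval -0.29 to 0.16, limma adjusted p = 0.803, and -0.0037 without the library labelled cKO replicate 3). *Sgcz*, *Drp2*, *Sntg1* and *Sntg2* were below 1 FPKM in all 6 libraries, and *Dytn* was listed at 0 in all.

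The enzymes that build the sugar chain of alpha-dystroglycan, through which it binds laminin, were present and differed little. All 17 listed passed the filter, 7 lower and 10 higher in cKO, with a median log2 difference of 0.0059. By limma none had an unadjusted p under 0.05, which 15.0% of all genes tested had in either direction.

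Of 9 matrix ligands of dystroglycan listed, 8 passed the filter, 4 lower and 4 higher in cKO. In each direction 1 of the 8 had an unadjusted p under 0.05, beside 9.43% lower and 5.58% higher among all genes tested, and none had an adjusted p under 0.05 by limma. The laminin alpha-2 chain (*Lama2*), the chain of the muscle basement membrane, was at 9.95, 8.01 and 9.49 FPKM in control and 5.99, 5.27 and 5.68 in cKO (log2 difference -0.61, SE 0.11, limma adjusted p = 0.0851). The alpha-5 chain (*Lama5*), common in epithelial and vascular basement membranes, was at 14.2, 13.2 and 13.7 FPKM in control and 16.3, 17.0 and 16.9 in cKO (log2 difference 0.27, SE 0.08, limma adjusted p = 0.187). In both chains every cKO library, the one labelled replicate 3 included, lay on the same side of all controls, and without that library the differences were -0.61 and 0.26. Of all genes tested, 13.0% had every cKO library below all controls and 7.74% above them.

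Proteins that bind the complex inside the cell held both the lowest and the highest difference of these lists. Of 14 listed, 13 passed the filter, 7 lower and 6 higher, of which 4 lower and 2 higher had an unadjusted p under 0.05 and none an adjusted p under 0.05 by limma. Of all genes tested, 9.43% were lower and 5.58% higher with such an unadjusted p. Caveolin-3 (*Cav3*), the muscle caveolin that binds beta-dystroglycan, was at 19.0, 17.4 and 20.2 FPKM in control and 7.23, 7.90 and 14.7 in cKO (log2 difference -0.92, SE 0.22, limma adjusted p = 0.154). Myospryn (*Cmya5*), which binds dysbindin and desmin, was at 5.79, 4.63 and 4.61 FPKM against 2.02, 2.56 and 3.86 (log2 difference -0.68, adjusted p = 0.168). *Mlip*, which encodes a lamin-interacting protein of muscle, had 30.8, 29.8 and 35.5 FPKM in control and 19.7, 19.8 and 26.8 in cKO (log2 difference -0.53, adjusted p = 0.161). Ankyrin-G (*Ank3*), which binds dystrophin and beta-dystroglycan, had 51.9, 46.2 and 45.6 FPKM against 36.3, 37.8 and 44.0 (log2 difference -0.28, adjusted p = 0.263). In each of these 4 genes the library labelled cKO replicate 3 was the cKO value nearest to control. The groups did not overlap, as in 13.0% of all genes tested in that direction. Without it the log2 differences were -1.21 for *Cav3*, -0.87 for *Cmya5*, -0.67 for *Mlip* and -0.36 for *Ank3*, and the first 3 had a limma adjusted p under 0.05, as had 1.98% of all genes tested in those 5 libraries. The keratins *Krt8* and *Krt19*, which form filaments that can bind dystrophin, were higher: *Krt8* was at 9.11, 14.7 and 9.82 FPKM in control and 17.8, 25.5 and 20.2 in cKO (log2 difference 0.87, adjusted p = 0.134). *Krt19* was at 19.6, 19.6 and 22.8 FPKM against 46.9, 48.4 and 26.1 (log2 difference 0.89, adjusted p = 0.154). Without the library labelled cKO replicate 3 the differences were 0.89 for *Krt8* and 1.17 for *Krt19*, the latter with a limma adjusted p under 0.05. *Krt19* is also 1 of the 8 epicardial markers listed, of which the other 7 summed to 137 to 157 FPKM in control and 179, 157 and 135 in cKO, with 3 lower and 4 higher. Of these 7, *Upk1b* alone had an unadjusted p under 0.05 by limma. It was higher, at 11.1, 14.1 and 14.5 FPKM in control and 18.2, 16.4 and 17.2 in cKO. The part of that list in the keratin levels was not tested.

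The integrin-vinculin linkage, the other route from matrix to actin, and the regulators of muscle genes were taken for comparison. Of 13 linkage genes 12 passed the filter, 7 lower and 5 higher in cKO, with a median log2 difference of -0.01. Talin-2 (*Tln2*), the striated muscle talin, had a mean of 12.2 FPKM in control and 9.10 in cKO (log2 difference -0.39, limma adjusted p = 0.186, and -0.45 without the library labelled cKO replicate 3). It lay without overlap of the groups, as did 13.0% of all genes tested in that direction. It was 1 of 2 linkage genes with an unadjusted p under 0.05, both lower in cKO, beside 9.43% lower among all genes tested. All 9 regulators had a lower mean log2 level in cKO (median log2 difference -0.12), as had 55% of all genes tested, and 1 of them had an unadjusted p under 0.05, beside 9.43% lower among all genes tested. That gene was *Myocd*, a cofactor of serum response factor at CArG boxes, at 28.8, 24.1 and 27.7 FPKM in control and 17.0, 18.7 and 21.1 in cKO (log2 difference -0.49, SE 0.11, limma adjusted p = 0.139), and it was at -0.56 without the library labelled cKO replicate 3, with a limma adjusted p of 0.0458. Serum response factor itself (*Srf*) was at 19.5, 19.4 and 19.3 FPKM in control and 17.7, 19.8 and 19.5 in cKO.

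**Figure D4:**
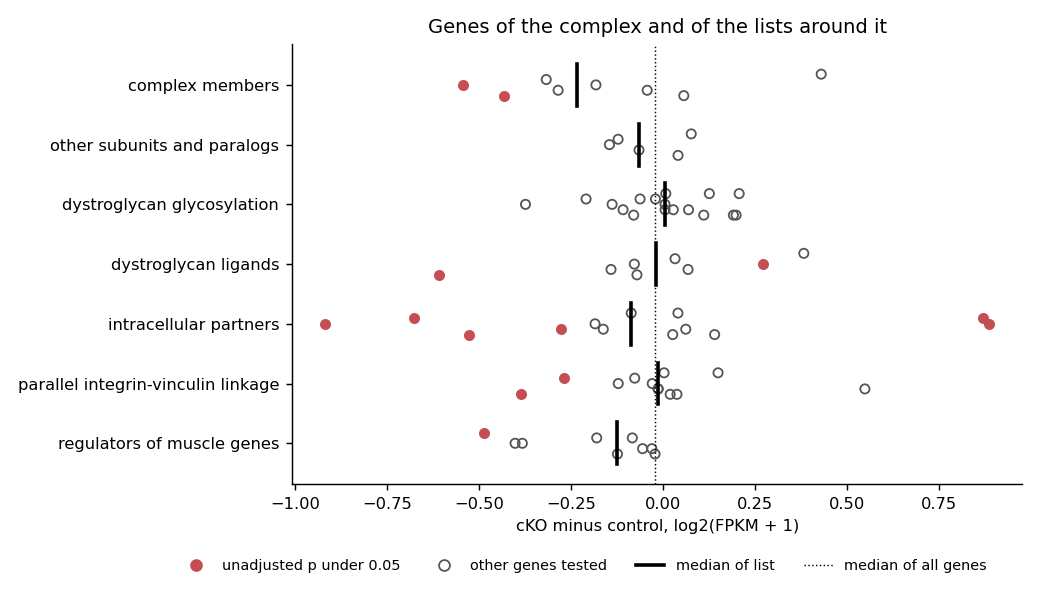
Difference between cKO and control in log2(FPKM + 1) of every tested gene (points) in the complex and in the 6 lists around it, with the median of each list as a thick line, the median of all genes as a dotted line, and genes with an unadjusted p under 0.05 filled. The medians run from -0.23 for the 8 complex genes to 0.0059 for the 17 glycosylation genes, and *Cav3* at -0.92 and *Krt19* at 0.89 are the lowest and highest points.

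The genes whose level followed that of *Dmd* most closely over the 6 libraries were looked for among 9040 genes with a mean of at least 5 FPKM. By Pearson's r of log2(FPKM + 1) they were Gm43312 (0.991), Gm4258 (0.985), *Ift80* (0.984), *Abhd18* (0.983) and *Mink1* (0.981). The highest of these, Gm43312, was at 9.32, 7.29 and 7.28 FPKM in control and 7.46, 4.96 and 4.62 in cKO, and like *Dmd* it was high in replicate 1 of each group. With 6 libraries in 2 groups that share their library preparation, these values are a description, and no other member of the complex was among the 5.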

How the data were processed

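Total RNA of embryonic hearts was sequenced by the authors after removal of ribosomal RNA, and 1 table of FPKM per transcript was deposited for all 6 libraries. The submitters' processing notes name HISAT2, Bowtie2 2.2.8, StringTie 1.3.1, Cuffdiff 2.1.1 and the build mm9, without roles, and the annotation release and strand setting are not given in the sources used here. The deposited FPKM hold no counts, so depth is unknown and no counting error could be given. Transcript rows (60776) were summed per gene identifier. Genes with at least 1 FPKM in 3 or more of the 6 libraries were tested on log2(FPKM + 1) with limma 3.58.1 (R 4.3.3, empirical Bayes with trend, 2-sided, no covariates), with Benjamini-Hochberg adjustment over all genes or rows tested. The script was tested on simulated data. P-values measure the spread between these libraries. Transcript names, lengths and starts came from GENCODE M21 (GRCm38), and promoter windows from RefSeq; the table gives no coordinates.

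All 8 complex genes were named, with *Mrps5*; of each other list every gene with an unadjusted p under 0.05, or else the one with the smallest p; of each complex gene the top row and every row with such a p (Sspn-202 without its test, since it passed the filter through the controls alone); and the 5 genes most correlated with *Dmd*. *Srf*, *Utrn* and *Sgce* were added after their values were seen, and some genes that this rule names are not reported here. The complex genes and the lists were chosen with earlier results of these data known. Alternatives were another pseudocount, other filters, scaling by median ratios, rescaling without erythroid genes, the most abundant row alone, no trend, a replicate block and leaving out each library.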

Additional observations from a re-analysis of the deposited data

How the results depend on the processing

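The number of complex genes with an unadjusted p under 0.05, 2, was 1 from the most abundant row of each gene and ranged from 1 to 4 when a library was left out (4 without control replicate 2, 1 without control replicate 3 or without cKO replicate 2). Such a p was reached by 1991 of all 13262 genes tested in the main fit and 1577 of 12908 from the most abundant rows. It was reached by 1640 of 13069 genes without control replicate 2, and by 1524 of 13125 without control replicate 3. Without cKO replicate 2 the number was 2173 of 13115, and with the replicate block 2217 of 13262. Their median log2 difference of -0.23 was -0.36 at a mean of at least 5 FPKM, which left 4 members, and -0.082 from the most abundant rows, which for *Sgca* is a row that changed places with another between libraries. Counts of their transcript rows with such a p include Sspn-202, which passed the filter through the controls alone, and nothing is read from them: the count of 2 was 1 at a mean of at least 5 FPKM and 0 to 3 with a library left out (0 without control replicate 1, 1 without control replicate 2 or control replicate 3). The number of members below every control, 2, was 1 at a mean of at least 5 FPKM, 1 from the most abundant rows and 2 to 4 with a library left out (4 without control replicate 2). Groups separate more easily with fewer libraries. The share of all genes below every control was 13.0% in the main fit and 17.7% without the library labelled cKO replicate 3. It was not taken for the other alternatives, so nothing is read from these counts. *Sgcd* kept its unadjusted p under 0.05 in all 14 alternatives, while *Sspn* lost it in 4. The sign turned for *Dag1* from the most abundant row (-0.012) and within a range of -0.135 to 0.23 with a library left out, below 0 without control replicate 1 (-0.056) or without the library labelled cKO replicate 3 (-0.135), and for *Sntb1* within -0.091 to 0.033, above 0 without that same library. The number of all genes with an adjusted p under 0.05 was 11, and it was 123 without cKO replicate 2, 261 without the library labelled cKO replicate 3, 7 without cKO replicate 1, 4 without control replicate 1 or control replicate 2, 3 without control replicate 3, 4 with the replicate block or from the most abundant rows, 5 without the filter, 6 without the trend and 11 to 16 under the others. Deviations of same-numbered libraries correlated at 0.215, 0.108 and 0.0892, so the numbers were not taken as pairs, although each library correlated best with its own number; with the replicate block, 4 transcript rows and 3 members had an unadjusted p under 0.05, and *Dmd* was the member added (limma adjusted p = 0.186). The cause of these shifts was not tested, apart from the fewer genes or libraries that an alternative left.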

Other observations

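The antisense gene *Sspnos*, which lies inside *Sspn* on the other strand, had 0.490, 0.456 and 0.293 FPKM in control and 0, 0.0968 and 0.0861 in cKO, and Gm43931, an unnamed transcript inside *Sspn* on the same strand, had 0.429, 0.423 and 0.586 FPKM in control and 0.181, 0.177 and 0.192 in cKO. Both lay below the filter, near 0, and without overlap of the groups, in the direction of *Sspn*, whose own groups overlapped. Among all genes tested 13.0% lay without overlap in that direction. Since the strand setting of the counting was not stated, reads of *Sspn* and *Sspnos* cannot be told apart.

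The ratio of *Dmd* to *Utrn*, chosen after the values were seen, was 0.428, 0.518 and 0.397 in control and 0.347, 0.318 and 0.358 in cKO. All 3 cKO ratios were below all control ratios, which gave a 2-sided exact permutation p of 0.1, the smallest that 3 against 3 libraries can give. The ratios of *Sspn*, *Sgcd* and *Sgca* to *Sgce*, computed in the same family of 4, overlapped between the groups, with exact permutation p of 0.3, 0.2 and 0.3. In the library labelled cKO replicate 3 the ratio of *Sspn* to *Sgce* was 1.05, within the control range of 0.958 to 1.09, while it was 0.549 and 0.594 in the other 2 cKO libraries.

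Of 8 genes of the skeletal muscle lineage, which uses the same complex, *Myod1*, *Myf5*, *Myog*, *Pax7*, *Mymk* and *Myh3* were at their highest in cKO replicate 2, the top values being 2.16 FPKM for *Myog* and 1.08 for *Myod1*. The other two, *Ckm* and *Acta1*, were at 0.506 and 78.8 FPKM there, below every control library. In that library *Sgca* at 2.97 FPKM and *Dag1* at 42.4 were the lowest of the cKO group. *Sgcb* at 5.62 and *Dtna* at 4.16 FPKM were the highest of it, and the other members lay between. The part of this lineage in these levels was not tested.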
